A study of Bos taurus with 39 samples.

Results

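Bovine oocytes that matured for 22 h with a gap junction blocker were compared with oocytes that matured for the same time without it. The comparison took the 3 libraries labelled control and the 3 labelled CBX at 22 h, which are 6 of the 39 miRNA libraries of the series, and it was read over all mature miRNAs, known and predicted. The series followed miRNAs in the bovine cumulus-oocyte complex (COC), with further libraries of oocytes at other times and of oocytes that matured without their cumulus cells. Control oocytes matured inside their COC in serum-free medium with epidermal growth factor, and CBX oocytes matured the same way with 100 µM carbenoxolone (CBX), a glycyrrhetinic acid derivative that closes gap junctions. In both groups the cumulus cells were taken off after the 22 h by vortexing in hyaluronidase, and oocytes with a visible polar body were kept, so each library reads matured oocytes and not whole complexes. Each library pooled 30 oocytes, and a lower level in every oocyte and a loss from some oocytes of the pool cannot be told apart. The replicate numbers in the labels were taken to stand for the ovary pools from which the oocytes came, and control and CBX libraries with the same number were treated as pairs.

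Gap junctions are channels built of connexins that join the cytoplasm of neighbouring cells. In the COC they lie at the tips of cumulus cell projections that reach the oocyte through the zona pellucida, and they pass ions, metabolites and signal molecules such as cAMP, which holds the oocyte in meiotic arrest. A miRNA is a short RNA that is loaded into an Argonaute protein and pairs with messenger RNAs mainly through its seed, which is bases 2 to 8 counted from the 5′ end. The known miRNAs are entries of miRBase, and the predicted ones were called by the miRPro pipeline from reads that align to hairpin-like places in the genome. Short fragments of other RNAs, such as tRNAs, can meet such a call.

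For some of the miRNAs named below, sequences that the study lists are shown with the seed in capitals. It lists none for miR-1246 or predicted miR-475. The study listed 18 predicted miRNAs with the mature sequence it predicted. It listed 4 known ones as the targets of its PCR primers, so those sequences were not read from these libraries.
predicted miR-895: gCGCCCCCggggccgcgg
predicted miR-906: gAGGGAUCccugccuagcggg
predicted miR-162: uCCAUCUGgacggcuuggcauuggg
predicted miR-364: gGGCGCGAagcggggcug
predicted miR-457: uCCCCGGCaccuccacca
predicted miR-484: gGGGGUGUagcucagugg
predicted miR-485: gGGGAUGUagcucagugg
predicted miR-824: gUCAGGAUggccgaguggucuaagg
miR-21-5p: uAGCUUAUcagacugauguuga
miR-92a: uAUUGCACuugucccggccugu
The 18 predicted sequences were 18 to 25 bases long and carried 18 distinct seeds, so no pair of them shared a seed. Predicted miR-895 consisted of G and C alone (100% GC), and predicted miR-364 held 83.3% GC, whereas miR-21-5p held 36.4%. Predicted miR-457 was the 1 sequence of the 18 that ended in CCA, the bases that cells add to the 3′ end of every tRNA. As background that was not checked against a reference here, its letters are those of the 3′ end of an alanine tRNA, the letters of predicted miR-484 and miR-485 are those of the 5′ ends of alanine tRNAs, and those of predicted miR-824 are the 5′ end of a leucine tRNA. All 18 passed the filter on low counts at 22 h.

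The 3 control libraries held 131920, 74337 and 94375 counts on miRNAs, and the 3 CBX libraries held 91725, 18796 and 87344, against a median of 70069 over the 39 libraries. CBX replicate 2 was thus the shallowest of the 6, and a floor of 3 counts stood for 159.6 CPM there against 22.7 to 40.4 CPM in the other 5 (counting error only). CPM here are counts scaled to the same total over the tested miRNAs, with TMM factors between libraries, and floors refer to all miRNA counts. Replicates differed from each other by more than sampling noise (a chi-square per degree of freedom of 5.31 to 12.02 over the 6 pairs of libraries). Known miRNAs took 44.0% ± 1.32 of the counts in control and 41.8% ± 1.08 in CBX (SD, n = 3; exact two-sided permutation p = 0.2). The number of miRNAs with at least 1 count was 1066, 1040 and 1034 in control and 1041, 799 and 1031 in CBX (exact permutation p = 0.3), and thinned to 18796 counts it was 749 ± 27.1 and 767 ± 27.5 (p = 0.6, exact permutation test). The smallest p that 3 against 3 libraries can give is 0.1. Oocyte messenger RNAs were not measured, so the cell type label was checked only against miRNAs linked to other cells, whose values stand with their lists.

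Of the 1995 mature miRNAs in the tables, 1247 had a count in the 6 libraries, and 474 (120 known and 354 predicted) passed the filter and were tested with edgeR's quasi-likelihood test with the replicate number as a block. None of the 474 (0%) reached an adjusted p under 0.05 (Benjamini-Hochberg) with at least a doubling or halving, and the smallest adjusted p was 0.0715. At an unadjusted p under 0.05 there were 50 miRNAs, 10.5% of those tested. Of these, 41 (8.65%) were higher and 9 (1.9%) were lower in CBX. The 41 higher were 6 known and 35 predicted miRNAs, and the 9 lower were 5 known and 4 predicted. The share past the unadjusted threshold was 9.17% of the known (11 of 120) and 11% of the predicted miRNAs (39 of 354). The predicted miRNAs include copies that share all their counts, and the 50 came from 43 distinct count profiles.

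The count of calls changed with the settings of the test and with the libraries kept. With the robust option of the same edgeR test, 6 miRNAs passed (1.27%). On the lower side these were predicted miR-895, predicted miR-906 and the known miR-21-5p. On the higher side they were predicted miR-162, miR-364 and miR-475. DESeq2 with the same block called 7, with predicted miR-457 and the known miR-1246 in and predicted miR-475 out. Without the block, edgeR called 0 and 19 miRNAs had an unadjusted p under 0.05. When replicate 2 was left out of both groups, edgeR called 17 miRNAs among 496 tested, 15 of them higher in CBX, with 1 residual degree of freedom per miRNA. CBX replicate 2, the shallow library, was the highest of the 6 libraries for 35 of the 41 higher miRNAs and the lowest for 7 of the 9 lower ones, and over all 474 it was the highest for 123 miRNAs and the lowest for 170. With library sizes taken from the deduplicated reads in place of TMM, the median log2 fold change of all tested miRNAs went from -0.03 to -0.65, and the split of unadjusted calls went from 41 higher and 9 lower to 2 higher and 52 lower. The directions given here are therefore relative to the other miRNAs of the same libraries.

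**Figure D1:**
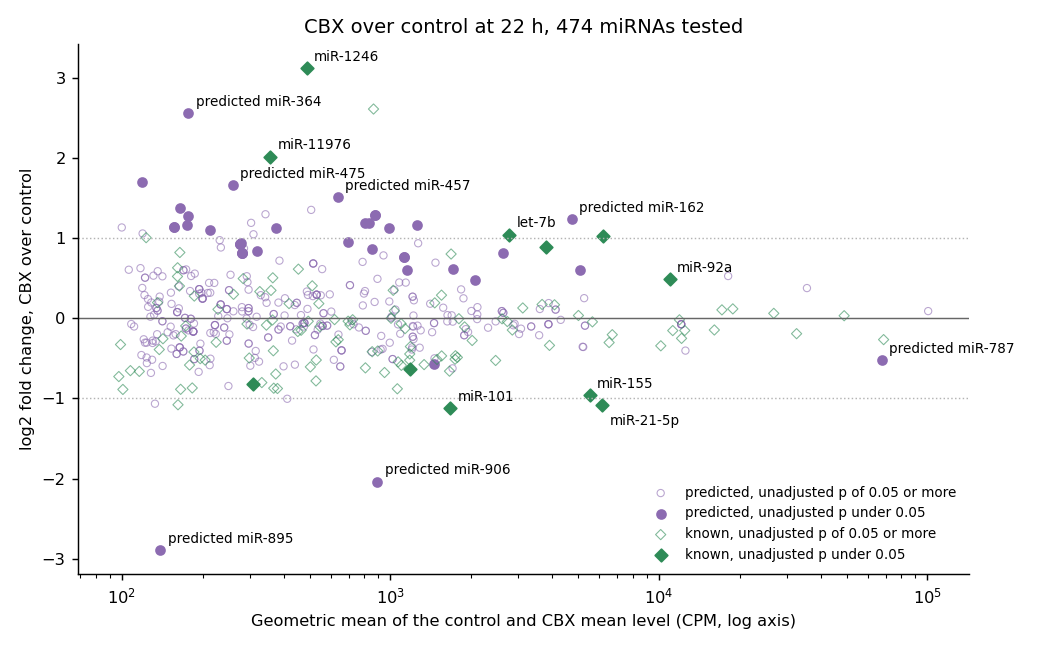
The log2 fold change of CBX over control at 22 h (vertical axis) is plotted against the geometric mean of the 2 group mean levels in CPM (horizontal log axis) for the 474 tested miRNAs. Circles are predicted and diamonds known miRNAs, filled where the unadjusted p was under 0.05; the filled points above 0 (41) outnumber those below (9), and the lowest point is predicted miR-895 at -2.89.

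Predicted miR-895 and predicted miR-906 had the largest differences on the lower side. In replicates 1, 2 and 3, the control libraries carried 23, 35 and 47 reads of predicted miR-895 and the CBX libraries 2, 1 and 6. On the CPM scale these were 179.7, 495 and 504 in control and 22.3, 54.1 and 71.2 in CBX. Every CBX library thus lay below every control library, although the CBX levels rested on 6 counts or fewer each. Those of CBX replicates 1 and 2 (2 and 1 counts) were under the floor of 3 counts, so the size of the difference is uncertain. The log2 fold change was -2.89 ± 0.38 (SE), a 7.43-fold lower level, with an adjusted p of 0.0715 by edgeR's quasi-likelihood test and of 0.0083 with its robust option. Predicted miR-906, which the study placed on the mitochondrial chromosome, stood at 1351, 1741 and 2510 CPM in control and at 546, 216.4 and 522 CPM in CBX. The groups did not overlap, and the lowest value was the 4 counts of CBX replicate 2. Its log2 fold change was -2.04 ± 0.35, which is 4.11-fold lower, with an edgeR adjusted p of 0.121 (0.017 with the robust option). These 2 form a set of 5 with miR-21-5p, predicted miR-162 and predicted miR-364. The study reported every member of this set as significantly different in this comparison, from these same libraries. The main edgeR fit called none of the 5, and its robust option called all 5. The reason for the difference from the study's calls was not tested. The values of these 5 here are not independent evidence. Of the 474 tested miRNAs, 22 (4.64%) had all CBX libraries below all control libraries, and 25 (5.27%) had all of them above. By pairs of the same replicate number, 79 (16.7%) were higher in CBX in 3 of 3 pairs and 93 (19.6%) were lower in 3 of 3. For single miRNAs without overlap the exact permutation test on CPM gives its smallest p, 0.1.

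On the higher side, predicted miR-162 was the most abundant of the miRNAs that passed any of the alternative settings in that direction. It held 434, 255 and 212 counts in control and 639, 155 and 521 in CBX, which are 3390, 3610 and 2274 CPM against 7125, 8387 and 6181 CPM. The 3 CBX levels lay close together and above all control levels. This was a log2 fold change of 1.24 ± 0.18 (2.37-fold), with an edgeR adjusted p of 0.0715 (0.0083 with the robust option). With library sizes from the deduplicated reads the log2 fold change of predicted miR-162 was 0.58 (edgeR adjusted p = 0.422). Predicted miR-364 had 4, 13 and 2 counts in control and 35, 13 and 8 in CBX. It was higher in CBX in 3 of 3 pairs, but the groups overlapped, because control replicate 2 (184.0 CPM) lay above CBX replicate 3 (94.9 CPM). Its log2 fold change of 2.56 ± 0.46 had an edgeR adjusted p of 0.121, and without the block the adjusted p was 0.934. Without replicate 1 its log2 fold change was 1.96, and without replicate 2 this miRNA did not pass the filter on low counts. The 2 counts of control replicate 3 were under the floor of 3 counts, so the size of the difference is uncertain. Predicted miR-475 stood at 171.8, 169.9 and 85.8 CPM in control and at 535, 649 and 237.3 CPM in CBX. All CBX libraries were above all control libraries, with a log2 fold change of 1.67 ± 0.31 and an edgeR adjusted p of 0.121.

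The study picked 5 predicted miRNAs as higher in CBX than in denuded oocytes at 6 h, and none passed the threshold here. Of these, predicted miR-318-0 was higher in 2 of 3 pairs and lower in 1 (log2 fold change 0.79 ± 0.49, edgeR adjusted p = 0.612). The other 4, predicted miR-457, miR-484, miR-485 and miR-824, are shown above. Each of these 4 was higher in CBX in 3 of 3 pairs, as were 16.7% of all tested miRNAs. Predicted miR-457 had 33, 36 and 34 counts in control and 99, 27 and 58 in CBX, or 257.8, 509.6 and 365 CPM against 1104, 1461 and 688 CPM. The groups did not overlap, and the log2 fold change was 1.51 ± 0.33 with an edgeR adjusted p of 0.205. Predicted miR-485 had 119, 340 and 74 counts in control and 158, 109 and 161 in CBX, with a log2 fold change of 0.82 ± 0.25 (edgeR adjusted p = 0.384). Predicted miR-824 had 59, 107 and 54 counts against 238, 39 and 67, with a log2 fold change of 1.16 ± 0.46 (edgeR adjusted p = 0.469). Predicted miR-484 had 21, 45 and 33 counts against 27, 26 and 31 (log2 fold change 0.69 ± 0.33, edgeR adjusted p = 0.525). On the CPM scale the groups overlapped for these 3, and for predicted miR-484 and miR-485 replicate 2 was the highest library of both groups. Of the 18 predicted miRNAs with a sequence, 5 had an unadjusted p under 0.05 on the higher side and 2 on the lower side. These 18 were chosen by the study on libraries of this series, so the counts describe them and are no test. The remaining predicted miRNAs among the 10 with the smallest p were predicted miR-2, miR-407, miR-885 and miR-399, all higher in 3 of 3 pairs, with log2 fold changes between 1.12 (predicted miR-399) and 1.70 (predicted miR-407) and edgeR adjusted p of 0.268 to 0.368.

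**Figure D2:**
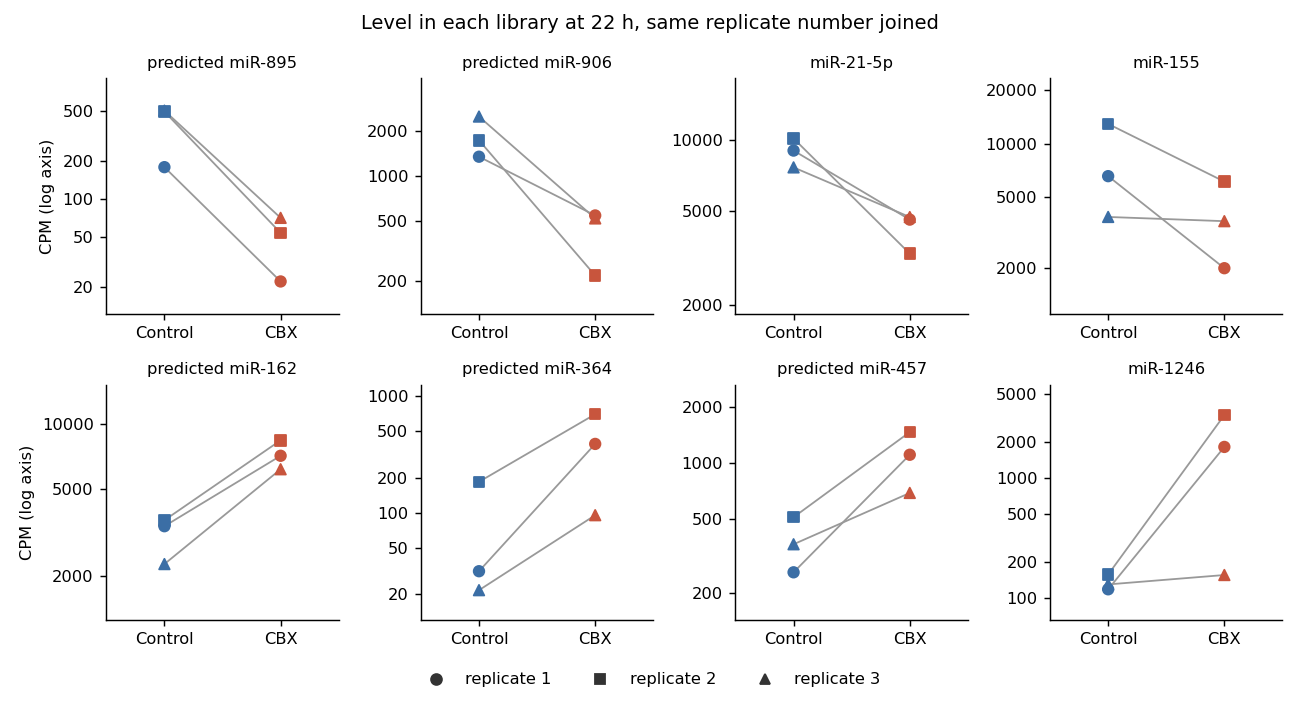
The level in CPM (vertical log axis, a different range in each panel) of 8 miRNAs in each of the 6 libraries at 22 h, with control at the left, CBX at the right, and lines joining libraries with the same replicate number. The 4 miRNAs of the upper row were lower in CBX in 3 of 3 pairs and the 4 of the lower row higher in 3 of 3 pairs; the line of miR-1246 in replicate 3 is nearly flat (128.7 and 154.2 CPM).

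Among the known miRNAs, miR-21-5p had the smallest p. It is found in many tissues and is induced by luteinizing hormone in granulosa cells, where it is linked to cell survival. The control libraries held 1159, 720 and 716 counts of it (9053, 10193 and 7679 CPM) and the CBX libraries 413, 61 and 398 (4605, 3301 and 4722 CPM). All CBX values were below all control values, and the CBX libraries of replicates 1 and 3 were nearly alike. Its log2 fold change was -1.08 ± 0.22 (2.12-fold lower), with an adjusted p of 0.177 by edgeR's quasi-likelihood test and 0.0298 with the robust option. Without replicate 2 it was -0.87, inside the fold threshold. The other arm of the same hairpin, miR-21-3p, had 0 counts in all 6 libraries, which is under the floor of 3 counts per library. In separate experiments the study reported, by RT-qPCR, a lower level of the 5′ arm in cumulus cells of complexes matured with CBX. It also reported that an injected mimic passed from oocytes to cumulus cells, and less so with CBX. Those RT-qPCR measurements were of cumulus cells and not of oocytes.

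The other known miRNAs on the lower side at an unadjusted p under 0.05 were miR-155, miR-101, miR-30e-5p and miR-17-5p, the last named after its value was seen. MiR-155, which is processed from the BIC transcript and is best known in activated immune cells, stood at 6562, 12896 and 3872 CPM in control and at 1996, 6115 and 3666 CPM in CBX. It was lower in 3 of 3 pairs, but the groups overlapped and replicate 3 was almost level. Its log2 fold change was -0.96 ± 0.32 with an edgeR adjusted p of 0.422. MiR-101, known for targeting the histone methyltransferase EZH2, held 272, 146 and 278 counts against 149, 6 and 128, with a log2 fold change of -1.12 ± 0.40 (edgeR adjusted p = 0.465). Its groups did not overlap, and the lowest value came from the 6 counts of CBX replicate 2. Without replicate 2 the log2 fold change of miR-101 was -0.69.

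The known miRNAs on the higher side were miR-1246, miR-3432a, miR-11976, let-7c, let-7b and miR-92a. MiR-1246, whose sequence in human matches part of the U2 small nuclear RNA, held 15, 11 and 12 counts in control and 163, 62 and 13 in CBX. In CPM, 2 of the CBX libraries stood at 1818 and 3355 and the remaining one at 154.2, within the range of 117.2 to 155.7 of the control libraries. Its log2 fold change of 3.12 ± 0.80 was the highest of the 474 in this fit, and its edgeR adjusted p was 0.326. It was 2.495, 2.62 and 4.15 without replicates 1, 2 and 3, and with DESeq2 it was 3.08, below the 3.93 of miR-206. MiR-3432a stood at 4281, 5351 and 2767 CPM in control and at 5397, 16720 and 5920 CPM in CBX. The groups did not overlap, and CBX replicate 2 was far above the other libraries. MiR-3432a had a log2 fold change of 1.02 ± 0.27 (edgeR adjusted p = 0.342). MiR-11976 held 5, 34 and 8 counts against 53, 20 and 18, with overlapping groups, a log2 fold change of 2.02 ± 0.56 and an edgeR adjusted p of 0.368. Without replicate 1 the log2 fold change of miR-11976 was 1.23, and without replicate 2 it was 2.74 and passed the threshold (edgeR adjusted p = 1.4e-05). MiR-92a, a member of the miR-17-92 cluster that is linked to cell growth, had a log2 fold change of 0.49 ± 0.17 (edgeR adjusted p = 0.422). Its direction was not the same under every scaling, since library sizes from the deduplicated reads gave -0.18.

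None of the 10 most abundant known miRNAs differed by more than 0.27 on the log2 scale, and the most abundant predicted miRNAs spread more widely. The predicted miR-212 held 97859 ± 13678 CPM in control and 103531 ± 4318 CPM in CBX (SD, n = 3), a log2 fold change of 0.09 ± 0.15. MiR-16b, the most abundant known miRNA, held 74981 ± 7005 and 62939 ± 12160 CPM, with a log2 fold change of -0.27 ± 0.14 (edgeR adjusted p = 0.549). MiR-10b, which is encoded within a HOX gene cluster, was at 48317 ± 4705 and 49657 ± 7844 CPM (log2 fold change 0.03 ± 0.14). None of the 10 known miRNAs with the most counts had an unadjusted p under 0.05, and their log2 fold changes lay between -0.27 (miR-16b) and 0.12 (miR-16a). Among the 5 most abundant predicted miRNAs the log2 fold changes ran from -0.53 to 0.53. Besides predicted miR-212 these were predicted miR-787, miR-777, miR-322 and miR-948. Predicted miR-787 was lower in 3 of 3 pairs (79107 ± 5387 CPM in control, 57749 ± 21832 CPM in CBX, log2 fold change -0.53 ± 0.21, edgeR adjusted p = 0.469). In CBX it ranged from 34739 CPM in replicate 2 to 78173 CPM in replicate 3, the latter inside the control range. Predicted miR-777 stood at 32980, 35547 and 25439 CPM in control and at 46129, 37715 and 37526 CPM in CBX, so that all CBX libraries were above all control libraries (log2 fold change 0.38 ± 0.16, edgeR adjusted p = 0.469). Predicted miR-322 was higher in 2 of 3 pairs with overlapping groups (0.53 ± 0.23), and predicted miR-948 was lower in 3 of 3 pairs with overlapping groups (-0.40 ± 0.21). Of these 5, predicted miR-787 alone had an unadjusted p under 0.05, and with library sizes from the deduplicated reads all 5 were negative.

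Known miRNAs were also read by family. Over the 120 known miRNAs tested, the median log2 fold change was -0.15, with 38 higher and 82 lower in CBX, and over the 354 predicted it was 0.04, with 187 higher and 167 lower. None of the members of the lists passed the adjusted threshold.

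The let-7 family, a large group with one seed that acts against growth genes such as HMGA2 and LIN28, was tested in 8 of 9 members. Of these, 2 had an unadjusted p under 0.05, both higher in CBX, and the median log2 fold change of the 8 was 0.02. Let-7c stood at 1929, 3072 and 2949 CPM in control and at 3367, 9415 and 3571 CPM in CBX, without overlap (log2 fold change 0.89 ± 0.28, edgeR adjusted p = 0.417). Let-7b had 1570, 1713 and 2091 CPM against 1985, 7413 and 3500 CPM (log2 fold change 1.05 ± 0.36, edgeR adjusted p = 0.422), and for both the highest library was CBX replicate 2. Without replicate 2 their log2 fold changes were 0.51 and 0.52. The abundant members were close to 0, with let-7a-5p at 0.06 ± 0.17 and let-7f at -0.15 ± 0.15.

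The miR-30 family, which shares one seed over the members a to e, was lower in all 5 members tested of 6, with a median of -0.51. Of these, 1 had an unadjusted p under 0.05, miR-30e-5p, with 159, 84 and 187 counts in control and 83, 12 and 107 in CBX (log2 fold change -0.63 ± 0.23, edgeR adjusted p = 0.465). The smallest difference was that of miR-30c at -0.04 ± 0.28. The group of miR-10, miR-99, miR-100 and miR-125, whose members lie in HOX clusters or beside let-7 genes, had 6 of 7 members tested, none with an unadjusted p under 0.05, and a median of 0.10. Its values ran from -0.22 ± 0.37 (miR-99b) to 0.52 ± 0.34 (miR-99a-5p).

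The miR-17-92 cluster and its paralogs, which promote proliferation, were tested in 9 of 13 members. The median was -0.42, 6 were lower and 3 higher, and 1 member on each side had an unadjusted p under 0.05, miR-17-5p lower and miR-92a higher. The range went from miR-18a at -1.08 ± 0.51, with 0 counts in CBX replicate 2, to miR-20b at 0.82 ± 0.43. All 4 tested members of the miR-23/24/27 clusters were lower, with a median of -0.37, and miR-24-3p was lowest at -0.88 ± 0.38 with 203, 93 and 127 counts against 88, 5 and 95. The miR-15/16 family, known as a brake on the cell cycle, had 6 of 7 members lower and a median of -0.40, from -0.69 ± 0.36 (miR-424-5p) to 0.12 ± 0.21 (miR-16a). The miR-148, miR-152 and miR-200 families had 6 of 8 members tested and a median of -0.16, with miR-141 lowest at -0.78 ± 0.34. The miR-26 and miR-29 families had 3 of 7 tested and a median of -0.15, with miR-29b at -0.25 ± 0.53 (-1.09 without replicate 1 and 0.38 without replicate 3) and miR-26b at -0.01 ± 0.19. None of the members of these last 4 groups had an unadjusted p under 0.05. With library sizes from the deduplicated reads, the medians of let-7 and of the miR-10 group became -0.64 and -0.56 against -0.65 over all tested.

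**Figure D3:**
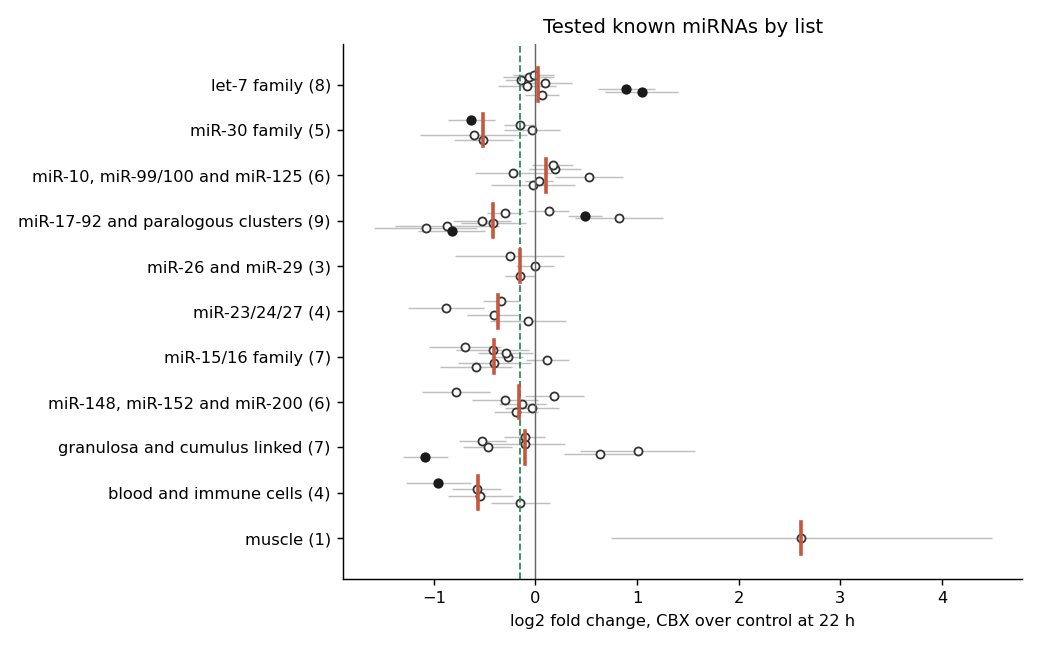
The log2 fold change of CBX over control at 22 h with its SE for the tested known miRNAs, in 1 row per list with the number tested in brackets. Filled points had an unadjusted p under 0.05, red bars are the list medians, and the dashed line is the median of all 120 known miRNAs (-0.15); the miR-30, miR-26 and miR-29, miR-23/24/27 and blood and immune rows lie wholly below 0.

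MiRNAs of cells that could have stayed on the oocytes were read as well. Of 11 miRNAs linked to granulosa and cumulus cells, 7 were tested, 5 were lower and 2 higher in CBX, 1 had an unadjusted p under 0.05 (miR-21-5p, lower), and the median log2 fold change was -0.11. Their summed level was 14427 to 15728 CPM in control and 8928 to 9634 CPM in CBX, without overlap, and most of that difference was miR-21-5p. The other 10 summed to 5374, 5535 and 7078 CPM in control and to 4839, 5628 and 4912 CPM in CBX, which overlap. Of the 11, miR-21-3p and miR-212 were at 0 in all 6 libraries. MiR-143, which is clustered with miR-145, held 224, 105 and 210 counts in control and 133, 23 and 103 in CBX (log2 fold change -0.47 ± 0.24, edgeR adjusted p = 0.543). On the CPM scale it lay lower in every CBX library than in any control library, but control replicate 2 and CBX replicate 1 were almost level. MiR-503-5p, which is clustered with miR-424, held 149, 102 and 149 counts against 67, 22 and 88 and was lower in 3 of 3 pairs with overlapping groups (-0.52 ± 0.23). The remaining lower members were miR-31 (-0.11 ± 0.20) and miR-202 (-0.10 ± 0.39). The 2 on the other side had few counts and overlapping groups. MiR-132 was at 0.63 ± 0.35, and miR-224, a granulosa cell miRNA that is induced by TGF-beta, held 4, 6 and 13 counts against 13, 5 and 10 (log2 fold change 1.01 ± 0.57, and 0.49 to 1.90 without 1 replicate). MiR-143, miR-503-5p, miR-31, miR-202 and miR-132 were named after their values were seen. Whether remaining cumulus cell RNA had a part in the level of miR-21-5p was not tested.

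Of 10 miRNAs of blood and immune cells, 4 were tested, and all 4 were lower in CBX, with a median of -0.56 and 1 unadjusted p under 0.05 (miR-155). Their sum was 7475 to 16124 CPM in control and 4705 to 7900 CPM in CBX, which overlap. The list was split by level. The red cell miRNAs miR-451, miR-144 and miR-486 and the blood cell miRNAs miR-142-5p and miR-223 were at 3 counts or fewer in every library, and miR-142-3p was at 0. The 4 tested members, which are used by lymphocytes among other cells, were well detected, with miR-155 at 361 to 911 counts in control and 113 to 309 in CBX. MiR-146a held 147, 75 and 152 counts against 103, 7 and 97 (-0.54 ± 0.32), miR-146b 232, 114 and 138 against 96, 17 and 108 (-0.58 ± 0.24), and miR-150 73, 36 and 38 against 42, 7 and 39 (-0.15 ± 0.29). MiR-146a, miR-146b and the untested members were named after their values were seen. Whether RNA of such cells had a part in these levels was not tested.

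The same treatment was also sampled after 1 and 6 h, and the difference at 22 h was set against those earlier ones in a fit over the 18 control and CBX libraries. None of the 533 miRNAs tested passed the adjusted threshold in either comparison of times. The count at an unadjusted p under 0.05 was 27 (5.07%) for 22 h minus 1 h and 30 (5.63%) for 22 h minus 6 h, with DESeq2 calling 1 and 0. Predicted miR-895, predicted miR-906 and miR-21-5p had smaller differences at the earlier times. These, and the miRNAs followed on the higher side, were picked for their 22 h differences in these same libraries. The 6 h difference also rests on few counts in control replicate 1, which held 5, 10 and 61 of these 3 miRNAs. It held 1708 counts of miR-16b against 8679 in CBX replicate 1 at 6 h. Replicates could also disagree at the earlier times. At 6 h predicted miR-906 had 10, 18 and 115 counts in control and 291, 20 and 38 in CBX. At 1 h predicted miR-895 had 12, 33 and 12 counts in control and 36, 10 and 12 in CBX. Predicted miR-895 had a log2 fold change of -0.17 ± 0.54 at 1 h, -0.60 ± 0.54 at 6 h and -2.83 ± 0.65 at 22 h in this fit, and the 22 h value differed from that at 1 h by -2.66 ± 0.84 (edgeR adjusted p = 0.828). Predicted miR-906 was at 0.10 ± 0.48, 0.19 ± 0.51 and -2.22 ± 0.53, and miR-21-5p at -0.05 ± 0.25, 0.27 ± 0.25 and -1.12 ± 0.25. For miR-21-5p the 22 h value differed from that at 6 h by -1.40 ± 0.36 (edgeR adjusted p = 0.360).

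On the higher side, predicted miR-162 had log2 fold changes of 0.09 ± 0.25, 0.58 ± 0.25 and 1.23 ± 0.25 at 1, 6 and 22 h, and predicted miR-457 had 0.22 ± 0.30, 1.101 ± 0.33 and 1.48 ± 0.31. MiR-1246 was at -0.98 ± 0.75, 0.01 ± 0.73 and 3.36 ± 0.66. Its 22 h value differed from that at 1 h by 4.34 ± 1.01, with an adjusted p of 0.3004 by edgeR's quasi-likelihood test and of 0.0085 by DESeq2. MiR-155 had 1.14 ± 0.72 at 1 h, -0.62 ± 0.67 at 6 h and -0.99 ± 0.65 at 22 h. In this fit of 18 libraries, an alternative chosen after the data were seen, 3 miRNAs passed the threshold at 22 h, namely predicted miR-162, predicted miR-457 and miR-1246, each with an edgeR adjusted p of 0.0428.

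**Figure D4:**
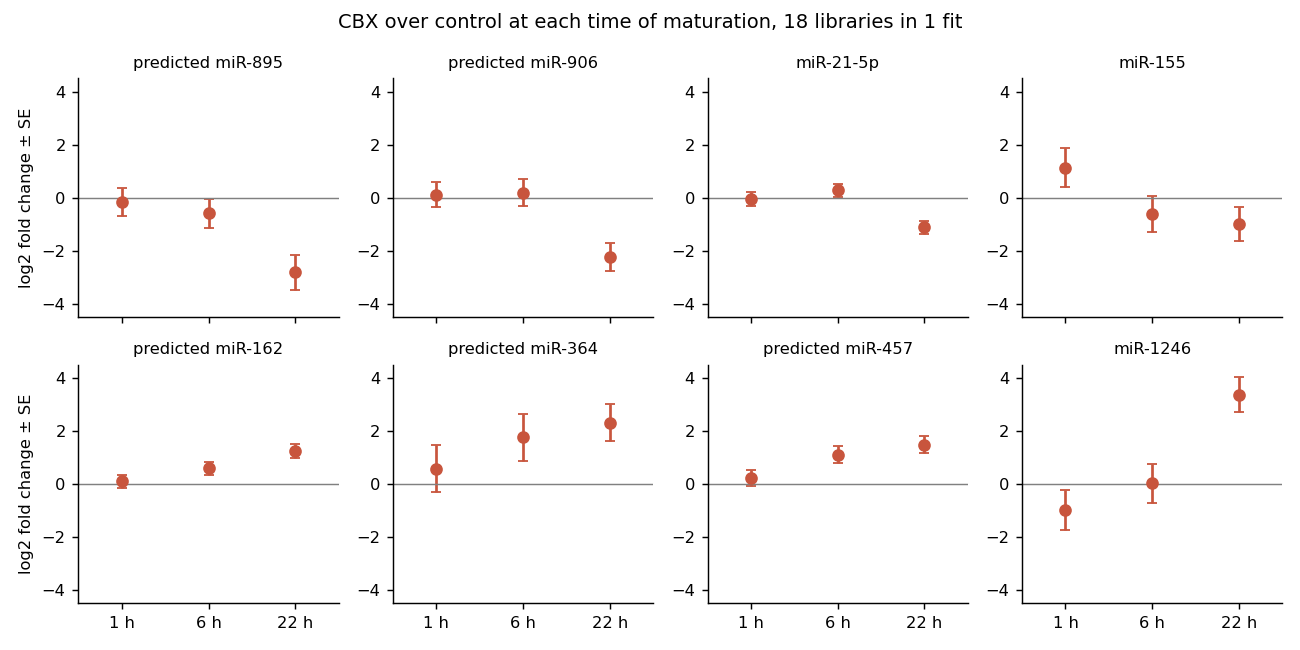
The log2 fold change of CBX over control with its SE (vertical axis) at 1, 6 and 22 h of maturation for 8 miRNAs, from 1 fit over 18 libraries. The 8 were chosen on their 22 h values. In every panel but that of miR-155 the value at 22 h lies farthest from 0, and no difference between times passed the adjusted threshold.

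At 22 h the series also held 3 libraries of denuded oocytes that shared the medium with COCs (cocult) and 3 of denuded oocytes alone (DO), and the levels are given side by side in CPM scaled over these 12 libraries. Predicted miR-895 was at 389 ± 177.1 in control, 48.8 ± 24.3 in CBX, 312 ± 223.8 in cocult and 651 ± 347 in DO (mean ± SD, n = 3). The highest CBX library (69.6) was above the lowest cocult library (59.8), while all control and DO libraries stood higher. Predicted miR-906 was at 1854 ± 565, 423 ± 177.4, 953 ± 90.9 and 662 ± 136.4 in the same order, and its CBX range of 218.7 to 539 overlapped only the DO range of 511 to 777. MiR-21-5p was at 8935 ± 1209 in control, above the 4166 ± 720.4 of CBX, the 5027 ± 1011 of cocult and the 5512 ± 904 of DO, and no library of these 3 groups reached the lowest control library.

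For predicted miR-162 control was lowest and CBX highest, with 3080 ± 721 in control, 4453 ± 336 in cocult, 4858 ± 215.2 in DO and 7185 ± 1222 in CBX, whose lowest library (6045) was above the highest of the others (5096). Predicted miR-457 was at 374 ± 116.9 in control, 289.6 ± 51.0 in cocult, 432 ± 63.5 in DO and 1080 ± 402 in CBX. MiR-1246 was high in 2 CBX libraries and in 1 DO library (2380 CPM), and at 235.1 CPM or lower in the other 9. The high libraries of miR-1246 were CBX replicates 1 and 2 and DO replicate 2.

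**Figure D5:**
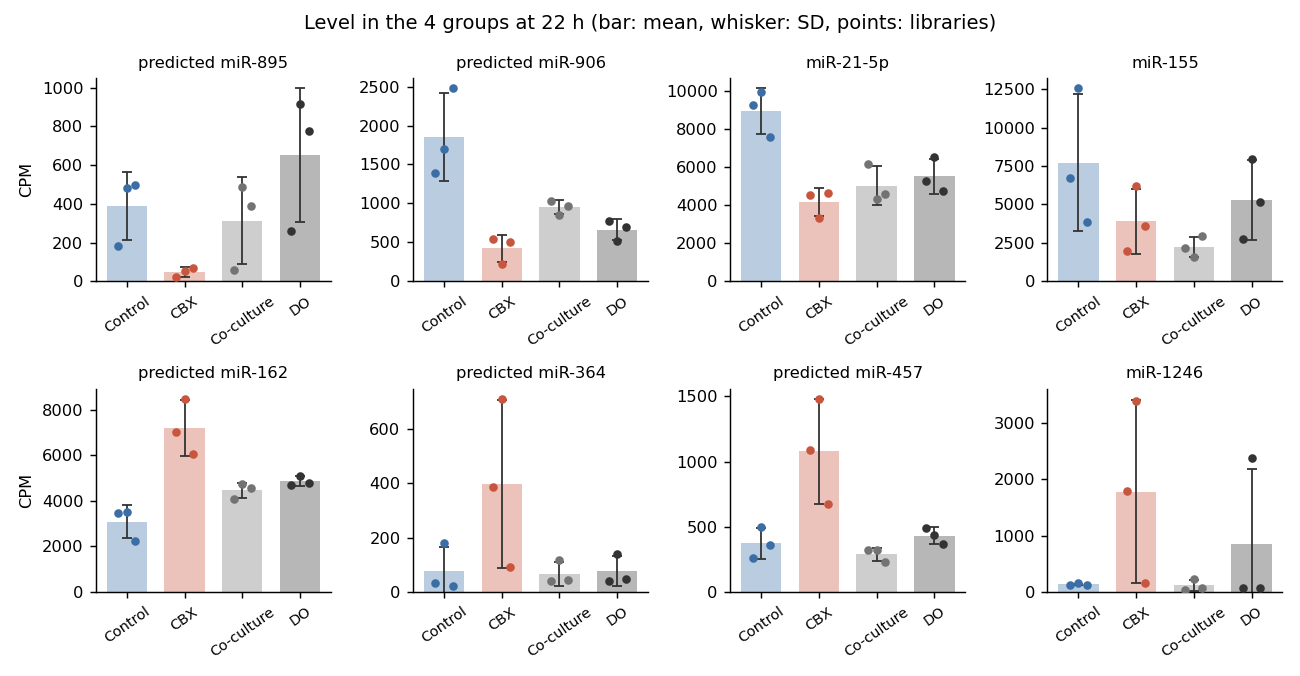
The level in CPM of 8 miRNAs in the 4 groups at 22 h (vertical axis from 0), with bars for the mean, whiskers for the SD and points for the 3 libraries of each group. MiR-21-5p and predicted miR-906 are highest in control, predicted miR-162 and predicted miR-457 are highest in CBX, and the mean of miR-1246 in DO rests on 1 library.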

How the data were processed

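The deposited values are whole-number counts per mature miRNA, 1030 known and 965 predicted. Per the study's methods and the labels, the authors made them from QIAseq miRNA libraries by trimming and deduplicating reads by molecular identifier with UMI-tools (1.1.2 per the submitters' processing notes), aligning to ARS-UCD1.2 and annotating with miRPro and miRBase, and they did not normalize them. The counting of reads that fit several copies is not given in the sources used here, and 364 predicted miRNAs shared all counts with another.

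Groups and replicate numbers came from the labels. Known and predicted counts were joined and tested with edgeR 4.0.16 (limma 3.58.1, R 4.3.3) in its quasi-likelihood form of version 3, without the robust option, with TMM, filterByExpr (minimum count 10, minimum total 15), a block term for the replicate number, and p-values adjusted by Benjamini-Hochberg across the whole tested table. A call needed both an adjusted p under 0.05 and a log2 fold change of 1 or more in size. The SE is the log2 fold change divided by the square root of F. DESeq2 1.42.0 was an alternative. Both were tested on simulated counts. The pairing was checked on 474 miRNAs. Deviations from the group means of same-numbered libraries correlated with r = 0.213, 0.272 and 0.345, against -0.282 to 0.002 for other numbers. Deviations from a group mean cancel within the group, so positive values for the same numbers push the others down. The values for other numbers are therefore no independent baseline. Single values were compared with exact two-sided permutation tests (scipy 1.17.1). The study repeated the experiment and joined replicates before RNA isolation, so each library holds oocytes of more than 1 culture. It does not say that these cultures were independent beyond the ovary pools, so p-values measure the spread between these samples. Sequences were those the study lists, and genome positions are not reported here.

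Named miRNAs were those the study picked for this comparison, those called in the 22 h fit or with the robust option, the 10 known and 10 predicted with the smallest p, the 10 known and 5 predicted with the most counts, and the extremes of each list. Members of the printed sequence set were named with it. The lists and this rule were chosen with earlier results of these data known.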

Additional observations from a re-analysis of the deposited data

How the results depend on the processing

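Against 0 miRNAs called at 22 h, the count was 6 with the robust option, 1 with the quasi-likelihood method of edgeR 4, 2 with library sizes from deduplicated reads, 7 with DESeq2, 6 with no low-count filter, 1 with at least 10 counts in every library, 4 with known and predicted miRNAs treated separately, 6 in a fit over 36 libraries and 3 in one over 18 (the last chosen after seeing the data), and 0 to 17 without 1 replicate, the 17 being without replicate 2. It stayed at 0 without the block, with RLE size factors, with identical copies collapsed and with no fold threshold. The 50 miRNAs with an unadjusted p under 0.05 became 19 without the replicate block, 30 with DESeq2, 94 with no low-count filter, 31 with at least 10 counts in every library, and 29 to 76 without 1 replicate (32, 76 and 29 without replicates 1, 2 and 3). The 0 calls of 22 h minus 1 h became 1 with DESeq2, 1 with separate treatment and 0 to 1 without 1 replicate (1 without replicate 3, miR-1246 in each), and those of 22 h minus 6 h stayed at 0 in every setting. The difference in miRNAs detected, -89.7, became 17.9 at the depth of the smallest library, -82.3 with identical copies collapsed and -133 to -14 without 1 replicate (-14 without replicate 2). The difference in known share, -2.17 percentage points, was -2.35 with identical copies collapsed and -3.40 to -1.55 without 1 replicate (-3.40 without replicate 2). Predicted miR-162 and miR-895 passed in 8 of 16 and 8 of 15 settings, predicted miR-906 in 7 of 15, miR-1246 in 5 of 16, and miR-21-5p in 4 of 16. Predicted miR-364 passed in 4 of 14, predicted miR-457 in 4 of 16 and predicted miR-475 in 2 of 15. Of 777 log2 fold changes of the 50 named miRNAs, 702 kept their direction and call, 45 passed the threshold, and 30 changed sign, none of them called. With library sizes from deduplicated reads these were miR-92a (-0.18), predicted miR-777 (-0.28), predicted miR-322 (-0.14), miR-200c (-0.41), miR-122 (-0.56), predicted miR-212 (-0.57), miR-16a (-0.55), let-7a-5p (-0.60) and miR-10b (-0.63). With separate treatment they were let-7f (0.00050), miR-23a (0.033), miR-30c (0.11) and miR-26b (0.14). With no low-count filter they were predicted miR-212 (-0.0092), let-7a-5p (-0.037) and miR-10b (-0.067). MiR-26b changed sign with RLE (0.0038), DESeq2 (0.0025) and collapsed copies (0.0063). Leaving out 1 replicate changed the sign of 11, whose ranges were -0.490 to 0.0068 for miR-148a, -0.11 to 0.230 for miR-122, -0.048 to 0.184 for predicted miR-212, -0.567 to 0.0042 for miR-99b, -0.15 to 0.350 for miR-16a, -1.09 to 0.38 for miR-29b, -0.13 to 0.149 for let-7a-5p, -0.013 to 0.043 for miR-10b, -0.33 to 0.20 for miR-23a, -0.115 to 0.0072 for miR-30c and -0.034 to 0.022 for miR-26b. The cause of these changes was not tested. Depth limited low miRNAs most in CBX replicate 2, where 16 of the 474 tested had 0 counts.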

Other observations

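Muscle miRNAs were a minor and uneven part of the libraries. MiR-206, which is specific to skeletal muscle, had 5, 172 and 1 counts in the control libraries and 91, 4 and 125 in the CBX libraries, so the direction of replicate 2 was opposite to that of replicates 1 and 3. Its log2 fold change was 2.61 ± 1.87 (SE; adjusted p of 0.681 by edgeR's quasi-likelihood test), and without replicate 2 it was 5.41. MiR-1 had 18, 3 and 3 counts against 7, 3 and 0, and miR-133b, miR-208a and miR-208b were at 0 in all 6 libraries.

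Of 6 miRNAs of pluripotent cells and the early embryo, 5 had no count in any of the 6 libraries, and miR-302b had 3 counts in CBX replicate 3 alone. MiR-122, best known as the main miRNA of liver, was among the 10 most abundant known miRNAs, with 16353 ± 1453 CPM in control and 18030 ± 5158 CPM in CBX (SD, n = 3; log2 fold change 0.11 ± 0.18).

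Detected in all 3 control libraries and in none of the 3 CBX libraries were miR-2285aj-5p (1, 1 and 2 counts), miR-2299-3p (1, 1 and 1) and predicted miR-257 (7, 2 and 1), all but 1 of these values at or under the floor of 3 counts, and no miRNA showed the opposite pattern.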
